A study of Rattus norvegicus with 6 samples.

Results

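Myosin is the motor of the heart's thick filament, and 8 gene names that encode it or bind it were followed here in the left ventricle of diabetic and control rats. They are the heavy chain genes Myh6, Myh7 and Myh7b, the light chain genes Myl2, Myl3, Myl4 and Myl7, and Mybpc3, which is not a chain but a protein bound along the thick filament. They were chosen by name, as every non-control spot carrying one of these symbols, and make up 8 of the 26456 gene names on the array. RNA from left ventricle of male rats aged 27 or 28 weeks was hybridised to 1-colour Agilent rat arrays, 1 array per sample. The 3 OLETF samples came from a strain with type 2 diabetes, and the 3 LETO samples from a non-diabetic strain used as the healthy control. The sample titles call the tissue ex vivo left ventricle, and the labels name no treatment or engineered allele. OLETF is known to lack a working receptor for cholecystokinin and to overeat, so strain and diabetes cannot be told apart. The labels speak of independent experiments and do not name single animals, and p-values therefore cover only how far these samples spread, which may be technical in part.

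Each myosin molecule pairs heavy chains, which hydrolyse ATP and pull on actin, with an essential and a regulatory light chain on each lever arm. The adult rat ventricle is known for its fast alpha heavy chain (Myh6) and, under pressure load, low thyroid hormone or insulin deficiency, for a shift toward the slow beta chain (Myh7). Myl2 and Myl3 are the ventricular regulatory and essential light chains, Myl7 and Myl4 are their atrial counterparts, and myosin binding protein C sets how readily the heads reach actin.

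Each member was read by a single 60-base probe design, and a probe sees its own stretch of the transcript only. The probes are shown because the heavy chains are near-identical in places and the light chains are not. Positions are in the rn4 build as the array files give them. Those of Myh6, Myl3 and Myl7 span more genome than the probe is long, so these probes cross at least 1 exon junction. The files give no position for Myl4. In the Myh6 probe, capitals mark bases that the probes of Myh8 and Myh13, both described with the heavy chains, share with it at the best ungapped overlap.
Myh6, chr15:33044576-33044983, minus strand: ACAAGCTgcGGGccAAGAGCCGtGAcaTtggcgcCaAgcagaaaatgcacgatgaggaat
Myh7, chr15:33073880-33073939, minus strand: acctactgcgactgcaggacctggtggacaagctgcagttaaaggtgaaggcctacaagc
Myh7b, chr3:146138435-146138494, plus strand: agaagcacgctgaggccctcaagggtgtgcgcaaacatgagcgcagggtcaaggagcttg
Myl2, chr12:35663794-35663853, minus strand: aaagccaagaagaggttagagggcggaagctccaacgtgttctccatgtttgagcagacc
Myl7, chr14:86568278-86568683, minus strand: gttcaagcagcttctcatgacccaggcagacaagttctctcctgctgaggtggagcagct
Myl3, chr8:115145098-115146213, plus strand: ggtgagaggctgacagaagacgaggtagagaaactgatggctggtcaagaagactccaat
Myl4, no position in the files: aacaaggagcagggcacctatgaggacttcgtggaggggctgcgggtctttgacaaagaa
Mybpc3, chr3:75495320-75495379, plus strand: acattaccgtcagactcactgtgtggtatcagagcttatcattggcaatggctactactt

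All 8 members matched a RefSeq gene through the accession of their probe. In RefSeq (assembly GRCr8), Myh6 and Myh7 are neighbours on chromosome 15, and microRNA genes lie inside the heavy chain genes, Mir208a and Mir3546 in Myh6, Mir208b in Myh7 and Mir499a in Myh7b. The microRNAs were not analysed here.

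Levels are given as log2 of the processed signal over the array's 75th percentile, which lay between 887 and 1228 intensity units. A level of one probe says nothing about the level of another, so only differences between arrays are read. OLETF 1 shared a slide with all 3 LETO arrays, while a second slide carried OLETF 2 and OLETF 3. LETO 1 stood apart from the rest, with the lowest array quality weight, 0.205, against 0.734 to 3.00 on the other arrays. As a check for heart muscle, the 12 genes listed as ventricular markers outside the members were above background on every array. Their summed signal was 2265 to 2531 times the percentile in LETO and 2083 to 2515 times in OLETF. In this linear sum the brightest genes weigh most, and the factors Irx4 (0.77 to 1.26) and Hey2 (−1.68 to 0.42) weigh little. No atrial tissue was on the arrays, so the check does not tell ventricle from atrium.

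No member passed the test between strains. All 8 were well above background on all 6 arrays, no spot was saturated, and 0 of 8 were called at an adjusted p under 0.05 by limma, where 2.55% of the 18816 genes tested were (1.5% higher and 1.05% lower). At an unadjusted p under 0.05, 1 of 8 passed (Myh7b), against 12.4% of all genes. With array quality weights, which count LETO 1 least, limma called 1 of 8 members, again Myh7b, against 9.03% of all genes under the same weights, so this count is near the background. In 3 of 8 members, Myh7b, Myl2 and Mybpc3, the groups did not overlap and OLETF was lower, against 8.43% of all genes lower without overlap. No member was higher without overlap, against 8.92% of all genes.

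**Figure D1:**
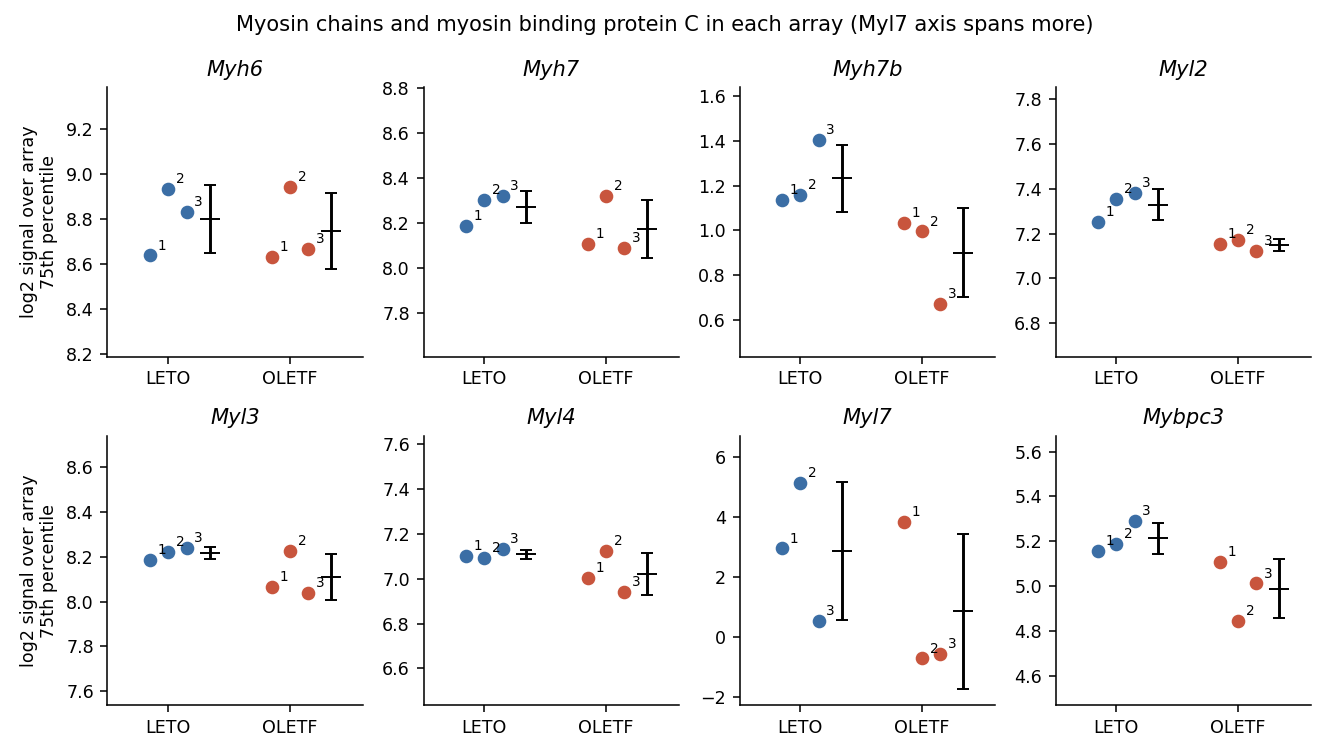
Log2 signal over the array's 75th percentile (vertical axis) of the 8 members, one panel each with its own axis, for the 3 LETO and 3 OLETF arrays. Points carry the replicate number and black bars show mean ± SD (n = 3). The values of Myl7 span 5.87 log2 units and those of every other member at most 0.73.

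Myh6 and Myh7, the adult ventricle's fast and slow motors, did not differ between strains beyond the spread of the arrays. Myh6 read 8.64, 8.93 and 8.83 in LETO 1 to 3 against 8.63, 8.94 and 8.67 in OLETF 1 to 3. The groups overlapped completely, with OLETF 2 the highest and OLETF 1 the lowest array of all. The log2 difference was −0.06 ± 0.12 (SE, adjusted p = 0.952), with a 95% interval of −0.35 to 0.24, or a fold between 0.785 and 1.18.

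Myh7 read 8.19, 8.30 and 8.32 in LETO against 8.11, 8.32 and 8.09 in OLETF. OLETF 1 and OLETF 3 lay below all LETO arrays and OLETF 2 lay among them. The log2 difference was −0.10 ± 0.10 (adjusted p = 0.847), with a fold interval of 0.794 to 1.10. A rise of the slow chain by more than 1.10-fold therefore lay outside the 95% interval on this scale. The processed signals of Myh6 and Myh7 each ranged 1.19-fold over the 6 arrays, less than the 1.38-fold range of the 75th percentile. The unscaled Myh7 signal and the percentile were both highest on OLETF 1 and lowest on OLETF 2. Whether the bright probes of Myh6 and Myh7 follow the amount of RNA in full was not tested.

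The balance of slow to fast chain is read most directly as a ratio on each array, since scaling to any single value per array cancels in it. The log2 ratio of the Myh7 to the Myh6 signal was −0.45, −0.63 and −0.51 in LETO against −0.53, −0.62 and −0.58 in OLETF. The 3 OLETF values lay inside the LETO range. The means were −0.53 ± 0.09 and −0.58 ± 0.05 (SD, n = 3 each), a difference of −0.04 (exact two-sided permutation p = 0.5, where 3 against 3 arrays cannot go below 0.1). Over the 9 pairs of 1 OLETF and 1 LETO array the difference ran from −0.17 to 0.11.

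Myh7b encodes a slow-type heavy chain that the heart transcribes and largely does not translate. It read 1.13, 1.16 and 1.40 in LETO against 1.03, 1.00 and 0.67 in OLETF. All OLETF arrays lay below all LETO arrays, by the smallest margin between OLETF 1 and LETO 1. The log2 difference was −0.33 ± 0.13, a fold of 0.795 (95% interval 0.641 to 0.986), with an unadjusted p of 0.040 and an adjusted p of 0.363, so the gene did not pass. Array quality weights gave −0.52 (adjusted p = 0.0468), and over all alternatives the difference ran from −0.52 to −0.20. Within the first slide, where only OLETF 1 could be set against LETO, it was −0.20.

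The Myh7b over Myh7 log2 ratio was −7.05, −7.14 and −6.92 in LETO against −7.07, −7.32 and −7.41 in OLETF. OLETF 2 and OLETF 3 were the lowest arrays, and OLETF 1 lay inside the LETO range. The difference was −0.23 (exact two-sided permutation p = 0.2), and with slide as a block it was −0.03. Under quantile normalization it was −0.36 and under normexp −0.35, each with an exact permutation p of 0.1, the smallest possible.

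**Figure D2:**
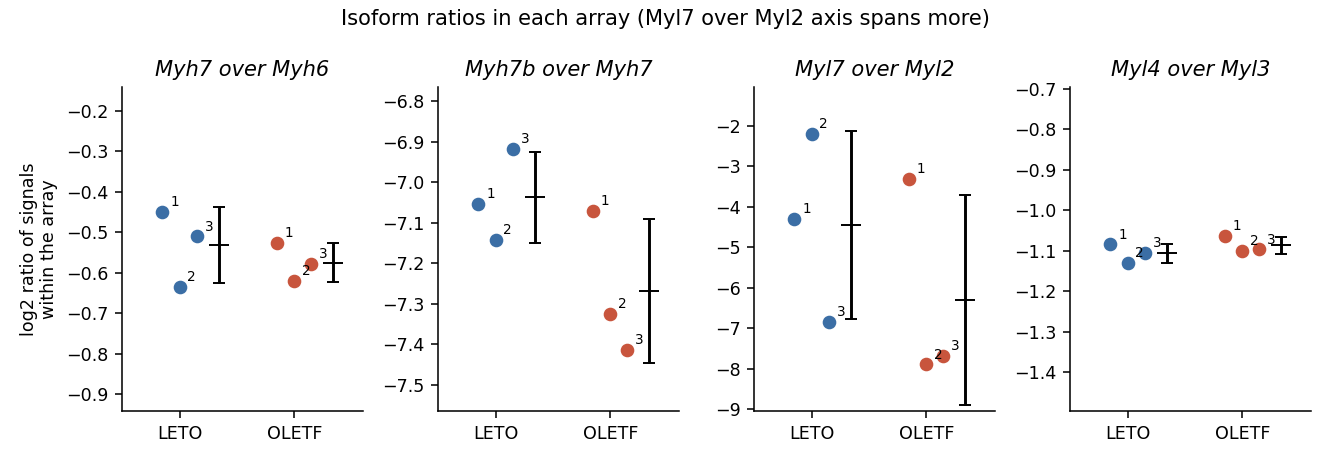
Log2 ratio of the signals of paired isoforms on each array (vertical axis, one panel per pair with its own axis), for LETO and OLETF. Numbered points are arrays and black bars show mean ± SD (n = 3); the strains overlap in every panel, and the Myl7 over Myl2 panel spans far more than the others.

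The probe of Myh8 and 1 of the probes of Myh13, heavy chains named for other muscles, tracked Myh6, and those of Myh3 and Myh4 lay farther from it. The neonatal skeletal chain Myh8 read 7.85, 8.23 and 8.18 in LETO against 7.96, 8.16 and 7.94 in OLETF. The brighter probe of Myh13, the chain of extraocular muscle, read 8.14, 8.47 and 8.37 in LETO against 8.13, 8.33 and 8.09 in OLETF. Both patterns followed that of Myh6, with a root mean square difference of the centred values of 0.05 for Myh8 and 0.06 for Myh13 over the 6 arrays. The Myh7 probe, which shares 12 of 21 overlapping bases with that of Myh6, lay about as near, at 0.06. The distance to Myh6 was 0.22 and 0.17 for the probes of the embryonic chain Myh3 and 0.42 for Myh4. These probes were dim, with LETO means of −4.36 for the brighter Myh3 probe and −5.01 for Myh4. The brighter Myh3 probe, at 0.22, shares 27 of 44 overlapping bases with that of Myh6, and the Myh7b probe, at 0.21, shares 14 of 24. Whether the tracking goes with shared bases or with brightness was not tested. The second Myh13 probe was well above background on 0 arrays. Of 18 skeletal muscle markers 12 were tested, and 10 to 12 of these were above background on each array, among them the fast troponin C gene Tnnc2 at 6.21 to 6.53. The fast chain Myh1 and the muscle factors Myod1 and Myf6 were above background on 0 arrays. In the sequences of these probes, capitals mark the bases shared with the Myh6 probe, 32 of 53 overlapping bases in Myh8 and 29 of 37 in Myh13.
Myh8, chr10:54002239-54002298, plus strand: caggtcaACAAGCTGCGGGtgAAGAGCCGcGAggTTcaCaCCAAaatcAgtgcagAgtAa
Myh13, chr10:54086927-54086986, plus strand: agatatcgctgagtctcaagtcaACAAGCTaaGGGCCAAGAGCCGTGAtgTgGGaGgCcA
This comparison was made after the values were seen. How much of the Myh8 and Myh13 signals came from Myh6 RNA was not tested.

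Among the regulatory light chains, the ventricular Myl2 was steady and the atrial Myl7 was not. Myl2 read 7.25, 7.35 and 7.38 in LETO against 7.16, 7.17 and 7.12 in OLETF. Every OLETF array lay below every LETO array. The log2 difference was −0.18 ± 0.08 (adjusted p = 0.448), a fold of 0.883 with an interval of 0.772 to 1.01, and under quantile normalization it was −0.09. The pooled SD within strains was 0.052, smaller than in all but 4.16% of genes.

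Myl7 had one of the widest spreads on the array. It read 2.96, 5.15 and 0.54 in LETO against 3.85, −0.72 and −0.57 in OLETF. LETO 2 and OLETF 1 were highest, OLETF 2 and OLETF 3 were lowest, and the groups overlapped. The processed signal ran from 538.5 to 33854 intensity units, a 62.9-fold range. The pooled SD within strains was 2.45, against a median of 0.146 over all genes, and 99.98% of genes had a smaller one.

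The log2 difference of Myl7 between strains was −2.03 ± 1.51 (adjusted p = 0.742), with a fold interval from 0.0206 to 2.91. With slide as a block it changed sign, to 0.97, and leaving out single arrays moved it between −3.53 (without OLETF 1) and −0.89 (without LETO 2). The Myl7 over Myl2 log2 ratio was −4.30, −2.20 and −6.84 in LETO against −3.31, −7.89 and −7.69 in OLETF, with a difference of −1.85 (exact two-sided permutation p = 0.4). The interval holds folds in both directions, so neither a lower nor a higher Myl7 level in OLETF was detectable at this spread.

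Other atrial genes varied with Myl7 on some arrays and not on others. Sln, encoding the atrial calcium pump regulator sarcolipin, read −4.04, 1.68 and −0.23 in LETO against 1.25, −4.05 and −1.77 in OLETF. Mybphl, an atrial relative of myosin binding protein C chosen after its values were seen, read −6.22, −3.13 and −5.57 in LETO against −3.52, −5.80 and −5.63 in OLETF, and was above background only on LETO 2, OLETF 1 and OLETF 3. All of Myl7, Sln and Mybphl were highest on LETO 2 and OLETF 1, whereas LETO 1, the third highest for Myl7, was low for Sln and Mybphl.

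Nppa, the atrial natriuretic peptide gene, did not share this order, reading 4.00, 2.66 and 2.08 in LETO against 2.28, 2.71 and 2.85 in OLETF. The atrial gene Bmp10 was above background on 1 array only (OLETF 2). The 11 tested atrial markers outside the members, Sln and Nppa included, were above background on every array. Their summed signal was 44.9, 34.5 and 38.0 times the percentile in LETO against 34.1, 39.3 and 37.1 times in OLETF. The sum was lowest within each strain on LETO 2 and OLETF 1, the arrays where Myl7, Sln and Mybphl were highest. It adds signals on a linear scale, so the brightest genes weigh most in it. On LETO 2, Pam, Dkk3 and Nppa read 3.37, 2.88 and 2.66, above Sln at 1.68. The part of atrial tissue in the Myl7 signal was not tested, and in bulk tissue fewer cells of a type and less RNA per cell cannot be told apart.

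Globin RNA also varied. Hbb, a beta globin gene, read 1.93, 2.91 and −1.02 in LETO against −0.09, −1.50 and −1.26 in OLETF. LETO 1 and LETO 2 were highest, and OLETF 1, where Myl7 was high, was not. Its difference was −2.22 (adjusted p = 0.411), and without LETO 3 it was −3.37 and called (adjusted p = 0.0242), as were Hbb-b1 and Hba-a2. The 5 tested red blood cell markers summed to 19.7, 27.5 and 6.78 times the percentile in LETO against 8.54, 7.94 and 7.08 times in OLETF.

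By the smallest root mean square difference over the 6 arrays, among 11656 candidate genes, the nearest patterns to Myl7 were the chemokine gene Cxcl2 (1.07), the cytokine gene Il1b (1.12) and Hbb (1.13). These distances are large beside those of Myh6, Myh7 and Myl4, whose nearest genes lay at 0.029, 0.012 and 0.015. Insm2, Seli and Ncoa2 were nearest to Myh6, Grin2d, Hes7 and Cep250 to Myh7, and Mark4, Plg and Fxr2 to Myl4. How far these near patterns come from the scaling to the percentile was not tested.

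**Figure D3:**
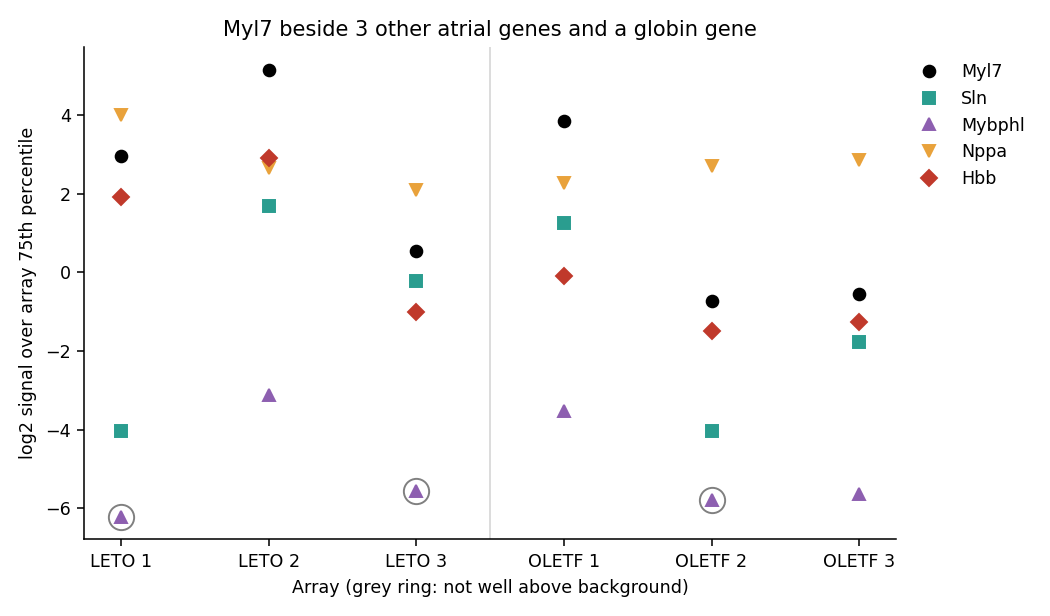
Log2 signal over the array's 75th percentile (vertical axis) of Myl7, 3 other atrial genes and the globin gene Hbb on each of the 6 arrays; grey rings mark values not well above background and a grey line parts the strains. Myl7, Sln and Mybphl peak on LETO 2 and OLETF 1, where Myl7 read 5.15 and 3.85.

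The essential light chains had the narrowest ranges of level among the members and followed the same pattern over the arrays. The processed signal ranged 1.24-fold for Myl3 and 1.27-fold for Myl4, less than the 1.38-fold range of the 75th percentile used for scaling. Myl3 read 8.19, 8.22 and 8.24 in LETO against 8.07, 8.22 and 8.04 in OLETF. Myl4 read 7.10, 7.09 and 7.13 in LETO against 7.0, 7.12 and 6.94 in OLETF. In both, OLETF 1 and OLETF 3 lay below all LETO arrays and OLETF 2 lay among them. The percentile was highest on OLETF 1 and OLETF 3 (1228 and 1227 intensity units) and lowest on OLETF 2 (887). Unscaled, the signals of Myl3 and Myl4 were also highest on OLETF 1 and lowest on OLETF 2. How much of the scaled pattern comes from the percentile was not tested.

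The log2 difference was −0.11 ± 0.09 for Myl3 (adjusted p = 0.785, fold interval 0.804 to 1.07) and −0.09 ± 0.09 for Myl4 (adjusted p = 0.845, fold interval 0.818 to 1.08). Unlike its atrial partner Myl7, Myl4 had a pooled SD within strains of only 0.067. The centred values of Myl4 and Myl3 differed by a root mean square of 0.02, the smallest distance between any pair of members, with Myh7 and Myl3 next at 0.03.

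The Myl4 over Myl3 log2 ratio, the atrial over the ventricular form, was −1.08, −1.13 and −1.11 in LETO against −1.06, −1.10 and −1.10 in OLETF. The means were −1.11 ± 0.02 and −1.09 ± 0.02 (SD, n = 3 each), and the groups overlapped. The difference was 0.02 (exact two-sided permutation p = 0.4), and over the 9 array pairs it ran from −0.02 to 0.07. Adjusted over the 4 ratios computed, every p was 0.5. How much of the Myl4 signal came from Myl3 RNA was not tested.

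Mybpc3 was spotted 10 times on each array, which gives its level a measured technical error. The means over spots were 5.16, 5.19 and 5.29 in LETO against 5.11, 4.85 and 5.01 in OLETF, with an SD between spots of 0.038 to 0.060 on an array. All OLETF means lay below all LETO means, but single spots of OLETF 1 (5.04 to 5.17) and OLETF 3 (4.89 to 5.12) overlapped those of LETO 1 (5.10 to 5.22) and LETO 2 (5.10 to 5.27). The log2 difference was −0.22 ± 0.10 (adjusted p = 0.440), a fold of 0.857 with an interval of 0.728 to 1.01. Within the first slide it was −0.10.

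**Figure D4:**
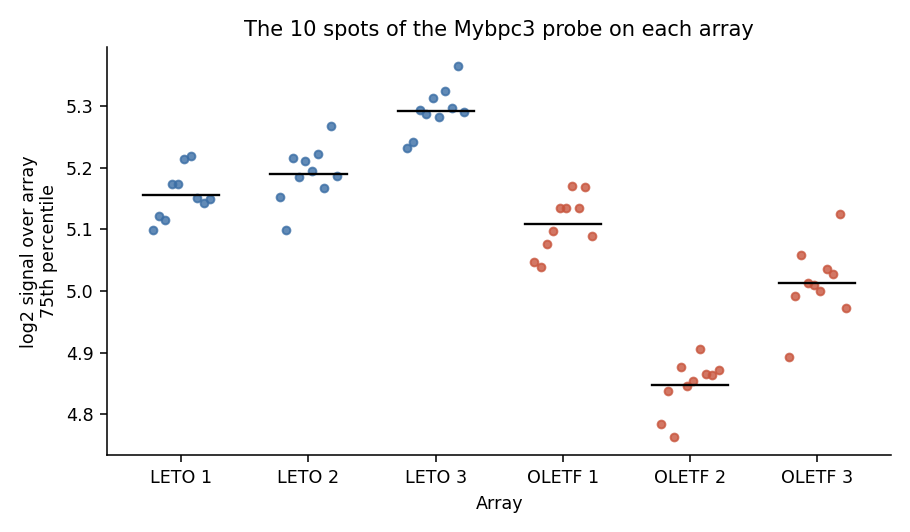
Log2 signal over the array's 75th percentile (vertical axis) of the 10 Mybpc3 spots on each of the 6 arrays, with a line at each array's mean. The OLETF means of 5.11, 4.85 and 5.01 lie below the LETO means of 5.16, 5.19 and 5.29, and the array-to-array spread exceeds the spot SD.

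All 8 differences were negative under scaling to the 75th percentile, against 52.4% of all genes, but under quantile normalization only 4 of 8 were. The median difference was −0.14 over the members and −0.01 over all genes tested. Very bright genes, a group set after the data were seen, were also mostly negative under the first scaling and less often under the second. Myh7b, Myl7 and Mybpc3 were not bright enough to be in this group. Of the 120 genes with a mean level above 7, 5 of them members, 91.7% were negative with a median of −0.08, and under quantile normalization 35% were negative with a median of 0.02. Myh6, Myh7, Myl3 and Myl4 changed sign under quantile normalization, to between 0.00090 and 0.056, and Myh7b, Myl2, Myl7 and Mybpc3 did not.

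**Figure D5:**
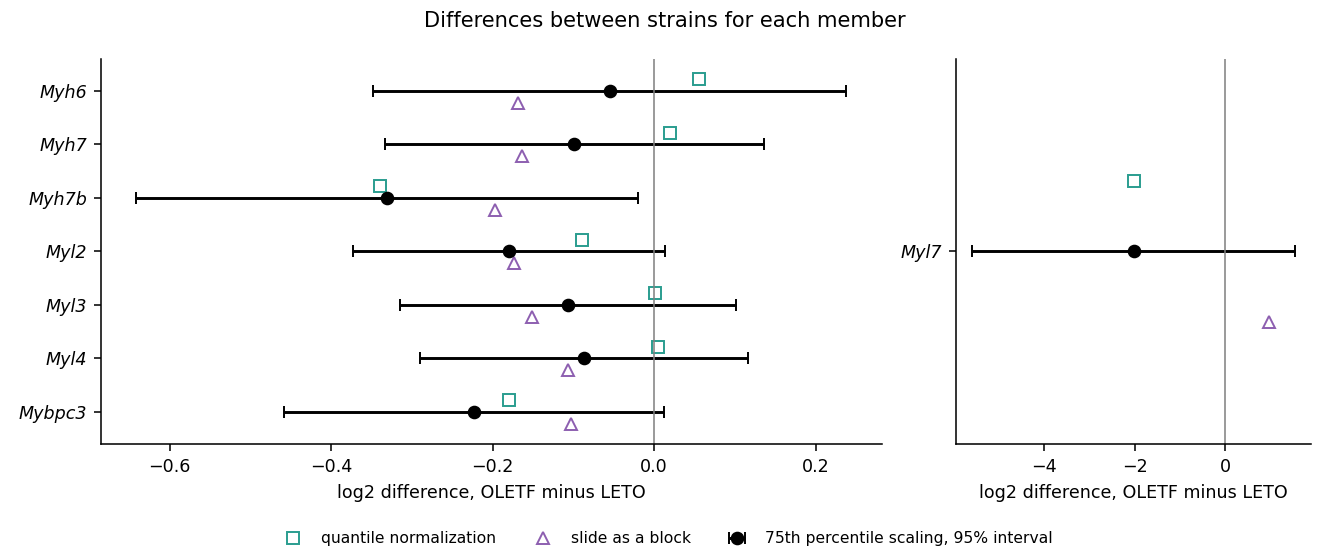
Log2 difference of OLETF minus LETO (horizontal axis) for the 8 members, with Myl7 on an axis of its own. Black points and bars are the estimate and its 95% interval under scaling to the 75th percentile, green squares are quantile normalization and purple triangles have slide as a block; the interval of Myh7b, −0.64 to −0.02, is the only one that leaves out 0.

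The genes that work with myosin showed few calls. Of the 9 tested genes of other striated myosins and myosin binding proteins, 0 were called, and their median difference was 0.04. The largest values were −0.64 for Myh4, a fast skeletal chain (adjusted p = 0.260), and 0.57 for Mybpc2, the fast skeletal binding protein C (adjusted p = 0.229). Of the 8 tested smooth muscle and non-muscle chains, 0 were called and all 8 differences were negative, with a median of −0.21.

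Myh11, the smooth muscle heavy chain, read 0.27, 1.66 and 1.34 in LETO against −0.0033, 0.60 and 0.29 in OLETF, where LETO 1 lay among the OLETF arrays. Its difference was −0.79 ± 0.35 (adjusted p = 0.436). Myl9, the smooth muscle regulatory chain, differed by −0.40 ± 0.13 (adjusted p = 0.228). Without LETO 1 both were called, Myh11 at −1.20 (adjusted p = 0.0456) and Myl9 at −0.52 (adjusted p = 0.0411). The 9 tested smooth muscle markers include both. Their sum was 68.0 to 69.0 times the percentile in LETO and 58.9 to 63.4 times in OLETF. It adds signals on a linear scale, so its brightest gene, Des, weighs most in it. Des, listed here also as a cardiomyocyte stress gene, read 5.50, 5.39 and 5.38 in LETO against 5.25, 5.25 and 5.19 in OLETF. The part of smooth muscle in the Myh11 and Myl9 values was not tested.

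In the thin filament and titin list, 1 of 17 tested genes was called higher and 0 lower, with a median of −0.11. The called gene was Tnni1, which encodes the troponin I of slow muscle and of the fetal heart. It read −3.35, −4.37 and −4.10 in LETO against −2.39, −1.41 and −2.07 in OLETF. All OLETF arrays lay above all LETO arrays, and Tnni1 rose by a log2 difference of 1.98 ± 0.33 (adjusted p = 0.0256). The call was lost with slide as a block (1.55, adjusted p = 0.341), with a replicate block (adjusted p = 0.0771), with age as a covariate, with no filter on dim probes, with a fold threshold, at an adjusted p under 0.01, and without any 1 of LETO 2, LETO 3, OLETF 2 or OLETF 3. Tnni3, the adult cardiac form, differed by −0.02 ± 0.09 (adjusted p = 0.981).

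Tnni1 was also the 1 gene called among 14 tested fetal and stress genes, a list whose median was −0.05. Of the 15 tested myosin light chain kinase and phosphatase genes, 0 were called. Ppp1r12b, the cardiac and skeletal myosin phosphatase targeting subunit, was closest, reading −0.94, −0.91 and −0.75 in LETO against −0.45, −0.34 and −0.49 in OLETF without overlap. Its difference was 0.44 ± 0.09 (adjusted p = 0.0671). Mylk3, the kinase of the cardiac regulatory chain, differed by −0.01 ± 0.09.

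None of 18 tested chaperones and turnover factors of the thick filament was called. Xirp1, a protein of the intercalated disc, differed by −0.74 (adjusted p = 0.235) and Smyd2, a lysine methyltransferase that helps hold titin, by −0.40 (adjusted p = 0.132). Of 28 transcription factors of contractile genes, 0 were called, with a median of −0.06. Hopx, a homeodomain protein of cardiomyocytes, read 2.91, 2.31 and 2.44 in LETO against 1.32, 2.21 and 1.84 in OLETF without overlap, a difference of −0.76 (adjusted p = 0.243), and Irx5 differed by 0.52 (adjusted p = 0.953).

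Thyroid hormone is the textbook regulator of the choice between Myh6 and Myh7. Of 17 tested genes of its signalling, 0 were called and the median was 0.01. The largest differences were 0.60 for Dio3, the enzyme that inactivates the hormone (adjusted p = 0.430), and 0.37 for the retinoid receptor gene Rxra (adjusted p = 0.710). Thra, the main cardiac thyroid receptor, differed by −0.03 ± 0.17.

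Markers of other cell types in the ventricle gave few calls. Of the tested markers, 0 of 10 were called for endothelium, 0 of 10 for fibroblasts, 0 of 9 for macrophages, 0 of 9 for smooth muscle, 0 of 12 for skeletal muscle, 0 of 13 for atrial and 0 of 16 for ventricular cardiomyocytes. Without LETO 1, 3 of the 9 smooth muscle markers were called lower, Myh11, Myl9 and Tagln (−1.15, adjusted p = 0.0318), and without LETO 3 the atrial marker Dkk3 was called at 0.85 (adjusted p = 0.0422). Among lymphocyte markers 2 of 8 fell, the T cell receptor subunit gene Cd3g by 0.96 and the cytotoxic granule gene Nkg7 by 0.84 in log2 units, with adjusted p = 0.0178 and 0.0220. Both calls were lost with slide as a block and without LETO 2, OLETF 2 or OLETF 3, that of Cd3g also without LETO 1 and that of Nkg7 also without OLETF 1. Without LETO 2, Cd8a was called instead, at −1.33 (adjusted p = 0.0229). Among red blood cell markers the anion exchanger gene Slc4a1 rose by 3.19 (adjusted p = 0.00589), a call lost with slide as a block (2.88, adjusted p = 0.116).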

How the data were processed

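The scanner files hold spot intensity, which the authors deposited unlogged with background subtracted, per the file headers (Agilent Feature Extraction 10.7.3.1; the submitters' processing notes name version 9.1). The deposited table of values holds the same intensity on a linear scale, uncentred, divided by a constant per array (column medians 0.176, 0.168 and 0.172 in LETO, 0.167, 0.171 and 0.171 in OLETF); a 1-colour value has no direction. Control spots and outlier-flagged spots were left out. Processed signals were log2 transformed, averaged per probe and scaled to each array's 75th percentile over probes. The percentile over spots was computed first, and the one over probes was kept with the calls of both known. A probe entered the test when every array of either strain had it well above background (21484 of 30367 probes), and the brightest such probe stood for its gene name.

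Strains were compared by limma 3.58.1 under R 4.3.3 (lmFit, eBayes, Benjamini-Hochberg over 18816 genes at 0.05) on all 6 arrays, and ratios with an exact permutation test. The scripts were checked on simulated data. Other software was Python 3.11.15 with pandas 2.3.3, numpy 2.4.6 and, for the plots, matplotlib 3.10.9. The number of arrays limits the precision. Replicate numbers follow the sample titles, although LETO 2 carries replicate 1 in its source name.

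The members, lists and tests were chosen with earlier results of these data known. All members are named; from each list up to 4 called genes, or up to 2 with the largest absolute differences where none was called, and for Myh6, Myh7, Myl4 and Myl7 the 3 nearest genes in pattern. Tnni3, Mylk3, Thra, Nppa, Bmp10, Myh1, Myod1, Myf6, Myh3 and Tnnc2 fall outside this rule and were chosen after their values were seen. The same holds for Cd8a, Dkk3, Hbb-b1, Hba-a2, Myh8, Myh13, Mybphl, Pam, Des and Irx4. Some items on the lists are not reported here. Alternatives covered scaling, background correction, the filter, the probe rule, moderation, array weights, thresholds, blocks, age and leaving out each array.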

Additional observations from a re-analysis of the deposited data

How the results depend on the processing

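The count of all called genes, 480, was 240 with no filter on dim probes, 1700 with array quality weights, 85 with a fold threshold of 1.5, 201 at an adjusted p under 0.01, 105 with slide as a block and 301 with a replicate block. Without single arrays it lay between 216 (without OLETF 3) and 614 (without LETO 1). The count of called members was 1 with array weights and 0 under every other alternative run, from 0 to 0 without single arrays. Values that changed sign were Myh6 (0.056 with quantile normalization, 0.044 with normexp, 0.035 with age as a covariate), Myh7 (0.020 and 0.013 with quantile normalization and normexp), Myl3 (0.00090 with quantile normalization) and Myl4 (0.0044 and 0.011, in the same order). With slide as a block Myl7 turned to 0.97, the Myl7 over Myl2 ratio to 1.14 and the Myh7 over Myh6 ratio to 0.0056. Without single arrays Myh6 lay between −0.15 and 0.012, turning sign without LETO 2 (0.012) or OLETF 1 (0.0020). The cause of these changes was not tested.

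The replicate numbers share only a number: deviations of same-numbered arrays correlated at −0.09, −0.14 and −0.0080, and the replicate block, at 301 calls, called 0 members. Chosen after seeing the data, the 75th percentile over spots in place of probes gave 451 calls and 0 members. Pairing every probe of a member was not run, since each has 1 probe. Slide and strain overlap in 1 OLETF array only, so the blocked values rest on OLETF 1 against LETO.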
